A study of Mus musculus with 2 samples.

Results

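The Myc, Max and Mxd network is a family of transcription factors that pair with each other and compete for the same DNA sites. It was followed here in 26 probe sets, all those whose gene symbol in the platform annotation was Myc, Mycn, Max, Mxd1, Mxd3, Mxd4, Mxi1, Mnt, Mga or Mlx, out of 45037 probe sets on the array. All 10 genes had at least 1 probe set, 0 probe sets were shared with another gene, and none had an identifier that marks cross-hybridization. The cells were sorted from the spleen of mice of the C57BL/6 background bearing a liver cancer, hepatocellular carcinoma (HCC). One sample was sorted as Ter119-positive and CD45-negative, that is for an erythroid surface protein and against the marker shared by white cells, and is called CD45-negative cells. The other held CD45-positive cells of the same animals, and whether Ter119 entered that gate is not stated. Each group had 1 Affymetrix array. How the tumours arose, the age of the mice, and how many animals were used or pooled are not given in the sources used here. No spleen cells from tumour-free mice were analysed here, so the tumour is shared by both groups.

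Max is the common partner of the network. Myc and Mycn bind Max and switch on genes of growth and division, whereas Mxd1, Mxd3, Mxd4, Mxi1 and Mnt bind Max and repress genes through the Sin3 corepressor. Mga also pairs with Max and belongs to a Polycomb repressor complex, and Mlx is a Max-like partner that serves the glucose-responsive factors Mlxip and Mlxipl. In mouse red cell precursors, Myc is known to decline during terminal maturation, and Mxd1 is known from several lineages as a gene of differentiating cells.

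Dimers of the network prefer the E-box CACGTG, a palindrome that reads the same on both strands. RefSeq windows from 250 bases before to 50 bases after the transcription start (GRCm38.p6) were found for 9 of the 10 genes, and Myc had no entry. The E-box occurred in the windows of 4 of these 9 genes, Mxd4, Mnt, Mlx and Max, against 8.09% of 27025 genes with a window and 11.6% of 9570 such genes measured on these arrays. The sites of these 4 genes are shown. By the differences described below, Mxd4 was at least 4-fold lower in CD45-negative cells, and Mnt, Mlx and Max were in neither class. Only 3 members were at least 4-fold higher, so the lack of an E-box in their windows says little at such shares. The E-box is in capitals, with 25 bases on either side, read along the gene.
Mxd4, chr5:34187899-34187954, minus strand: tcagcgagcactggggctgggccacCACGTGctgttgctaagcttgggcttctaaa
Mnt, chr11:74830776-74830831, plus strand: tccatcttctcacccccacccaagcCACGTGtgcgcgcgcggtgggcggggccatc
Mlx, chr11:101087225-101087280, plus strand: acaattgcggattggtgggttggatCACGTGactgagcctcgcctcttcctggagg
Max, chr12:76962221-76962276, minus strand: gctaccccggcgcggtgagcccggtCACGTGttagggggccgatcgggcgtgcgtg
The first base of the E-box lay at position -219 in Mxd4, -123 in Mnt, -40 in Mlx and -3 in Max, counted from the start. The E-box was found in 12.1% of the windows of genes at least 4-fold higher and 12.6% of those of genes at least 4-fold lower in CD45-negative cells, close to the share among all measured genes.

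The windows of Mxd1, Mxd3 and Mxi1 held no E-box but did hold GGCGGG (either strand, overlapping matches counted separately), here called a GC box. These letters are part of a longer site of Sp1-like factors, and a match need not hold all of that site. Such a box lies in the windows of 37.9% of genes and of 6 of the 9 members, also in Mnt (4 boxes), Mycn (2) and Mxd4 (1). Mxd1 had 4, Mxd3 had 8, and the 3 windows of Mxi1 had 2, 5 and 6. The GC content of the Mxd1 and Mxd3 windows was 76.7% and 71.0%, against a median of 52.7% over all windows, and base composition alone favours this motif. The 150 bases before the start are shown for Mxd1 and Mxd3, with GC boxes in capitals, the members that were higher in CD45-negative cells and had a single window each.
Mxd1, chr6:86669160-86669309, minus strand: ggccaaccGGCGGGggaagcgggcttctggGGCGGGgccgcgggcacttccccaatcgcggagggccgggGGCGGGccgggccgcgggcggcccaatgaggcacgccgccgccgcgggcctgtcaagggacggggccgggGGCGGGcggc
Mxd3, chr13:55329732-55329881, minus strand: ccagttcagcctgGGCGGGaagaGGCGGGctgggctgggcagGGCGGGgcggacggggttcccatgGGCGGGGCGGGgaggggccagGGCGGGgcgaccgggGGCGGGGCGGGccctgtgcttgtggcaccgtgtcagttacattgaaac
A match describes these letters only and shows no binding.

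Values are deposited intensities on a linear scale, and differences are log2 intensity in CD45-negative cells minus that in CD45-positive cells. As neither group was replicated, replicate error is unknown and no test was made. A gene counted as measured when it lay above an intensity of 101.1 in at least 1 array, the 95th percentile of 80 receptor probe sets of smell and pheromone genes taken as silent in spleen. Of 18193 genes, 11793 were measured. Their median difference was -0.26, and 0.01 after quantile normalization of the arrays. Different probe sets of the same gene differed with an SD of 0.83 in their log2 differences (5474 genes), which is not replicate error. The sort labels were checked against defining markers. All 7 red cell markers on the array were at least 4-fold higher in CD45-negative cells, and their summed intensity in CD45-positive cells was 2.97% of that in CD45-negative cells. All 6 general white cell markers passed 4-fold in the lower direction, with a summed intensity in CD45-negative cells of 2.11% of that in CD45-positive cells. For B cell, T cell, neutrophil and macrophage or dendritic markers the same share was 1.76%, 1.40%, 2.79% and 4.14%. No marker was at 0. All 4 megakaryocyte and platelet markers were also at least 4-fold higher in CD45-negative cells (summed intensity 26640 against 1380), and their part in the results below was not tested.

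The repressors Mxd1, Mxd3 and Mxi1 were the members with high values in CD45-negative cells. All 8 of their probe sets were higher there, with differences from 3.21 to 4.48 on the log2 scale. In these samples, more cells of a type and more RNA per cell cannot be told apart.

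Mxd1, a Max partner of differentiating cells, had 7515 in CD45-negative cells against 353.5 in CD45-positive cells, a difference of 4.41 (21.3-fold). Its other probe sets read 6101 against 382.5 and 1352 against 78.3, the last value under the detection level, so that the fold was 15.95 and at least 13.4. The 3 probe sets thus gave the same direction. Of 11793 measured genes, 205 had a larger difference than Mxd1.

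Mxd3, known in mice from dividing precursors in S phase, had 3806 in CD45-negative cells against 381.0 in CD45-positive cells (3.32, 9.99-fold). Its other 2 probe sets read 3624 against 164.0 and 2362 against 106.1, with differences of 4.47 and 4.48. The probe set that stands for the gene, chosen for its mean intensity, therefore gave the smallest of the 3 differences, and the mean over the probe sets was 4.09. Mxi1, a further Max-binding repressor, had 10747 in CD45-negative cells against 1081 in CD45-positive cells (3.31, 9.95-fold). Its second probe set read 3118 against 337.7, a difference of 3.21. The 2 Mxi1 probe sets thus gave nearly the same difference. Larger differences were found for 448 measured genes in the case of Mxd3 and 451 in that of Mxi1. The CD45-positive intensity was 4.70% of the CD45-negative intensity for Mxd1, 10.01% for Mxd3 and 10.05% for Mxi1, against 2.97% for the summed red cell markers and up to 6.83% for a single one (Tfrc). Which cells of the CD45-positive sample carried this signal was not tested.

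**Figure D1:**
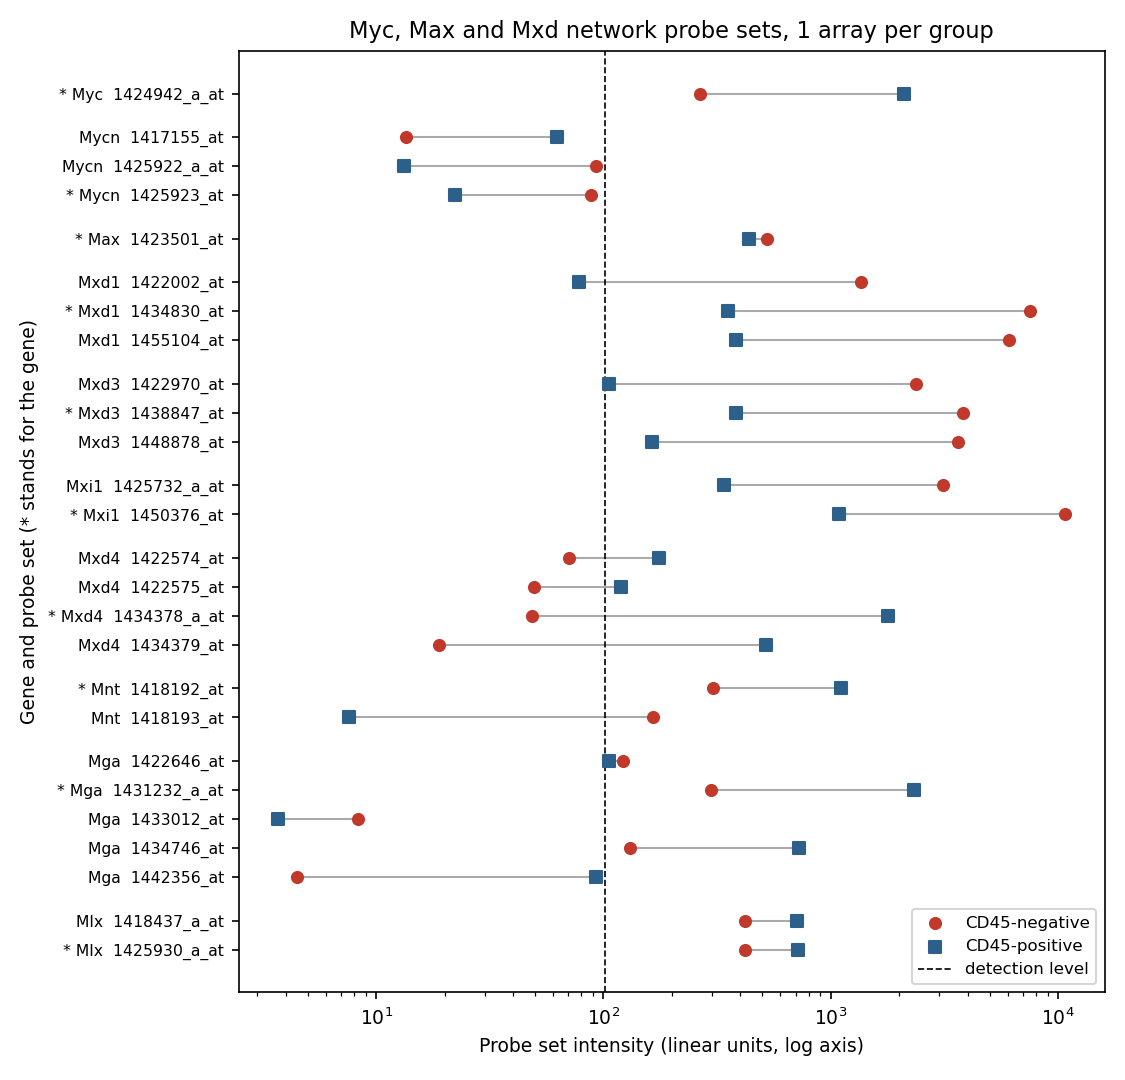
Intensity of each of the 26 probe sets in CD45-negative cells (red circles) and CD45-positive cells (blue squares), 1 array each, on a log axis, with the detection level of 101.1 as a dashed line and an asterisk at the probe set that stands for its gene. All 8 probe sets of Mxd1, Mxd3 and Mxi1 lie to the right in CD45-negative cells and all 4 of Mxd4 to the left, while the probe sets of Mnt and Mga do not run 1 way.

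Myc, the founding activator of the network, went the other way. Its only probe set had 266.4 in CD45-negative cells against 2102 in CD45-positive cells, a difference of -2.98 (7.89-fold lower). The CD45-negative value was above the detection level and was 12.7% of the CD45-positive value. The sums of the white cell marker lists gave shares of 1.40% to 4.14%. The 17 single markers above the level in CD45-negative cells ran from 1.31% for Ptprc to 19.5% for Adgre1. The second highest was Cd3e at 5.48%, so only Adgre1 had a larger share than Myc. Which cells of the CD45-negative sample carried the Myc signal was not tested. In the measured genes, 961 had a lower difference than Myc. With no second probe set, the reading could not be compared within the gene.

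Mycn, the Myc relative of embryonic and neural tissue, was not measured. Its 3 probe sets read 13.5, 92.4 and 87.9 in CD45-negative cells against 62.7, 13.2 and 22.2 in CD45-positive cells. All 6 values lay under the detection level and the probe sets did not run the same way, so no difference is given. Mycl, the third family member, named after its values were seen, was under the level as well (37.9 against 84.9).

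Max, without which Myc and the Mxd proteins do not bind DNA, differed little. Its probe set had 524.0 in CD45-negative cells against 436.9 in CD45-positive cells (0.26, 1.20-fold). After quantile normalization the difference was 0.93, the largest value under any setting. Mlx had 418.0 against 718.7 by one probe set (-0.78) and 419.6 against 711.8 by the other (-0.76). Both probe sets gave nearly the same difference, and with quantile normalization the difference of the first was -0.16. Neither partner reached 4-fold under any setting tried.

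Mxd4, the remaining Mxd repressor, stood opposite to Mxd1, Mxd3 and Mxi1. Its probe set with the highest mean read 48.3 in CD45-negative cells, under the detection level, against 1782 in CD45-positive cells. Taken against 127.3, which is the silent receptors' 95th percentile on that array alone, it was at least 14.0-fold lower. A second probe set read 18.9 against 518.6 (at least 4.08-fold lower). The last 2 probe sets read 70.8 against 174.8 and 49.5 against 119.1, close to the detection level, and give no 4-fold difference. All 4 CD45-negative readings of Mxd4 were under the level, and all 4 CD45-positive readings were above it. With the mean over probe sets the difference was -1.88, short of 4-fold.

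Mga, the largest protein of the network, carries both a T-box and a Max-pairing domain. It had 295.6 in CD45-negative cells against 2316 in CD45-positive cells (-2.97, 7.84-fold lower), and a second probe set read 130.5 against 721.4 (-2.47). The third gave 122.0 against 106.0, and both readings of the other 2 probe sets were under the level. The lower call of Mga thus rests on 2 of its 3 probe sets above the level. It was lost with the mean of these 3 (-1.74).

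Mnt, a widely expressed repressor that antagonizes Myc, gave no settled direction. Its probe sets read 303.6 in CD45-negative cells against 1104 in CD45-positive cells (-1.86) and 164.3 against 7.6, the last value under the level. The first was short of 4-fold lower and the second was at least 1.62-fold higher. With both probe sets held at the detection level, their mean difference was -0.58.

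Over the network, 3 of the 9 measured genes were at least 4-fold higher in CD45-negative cells (Mxd1, Mxd3 and Mxi1), where 8.31% of all 11793 measured genes were. A further 3 of 9 were at least 4-fold lower (Myc, Mxd4 and Mga), where 16.8% of all measured genes were. Max, Mlx and Mnt were in neither class. Of the 21 probe sets above the level in at least 1 array, 8 were at least 4-fold higher, 5 at least 4-fold lower and 8 in neither class. The 3 higher genes were so under all alternatives tried, though only scaling and the means over probe sets could change their differences. Only Myc remained of the 3 lower genes with the mean over probe sets. As Myc has only 1 probe set, that mean could not change its value.

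**Figure D2:**
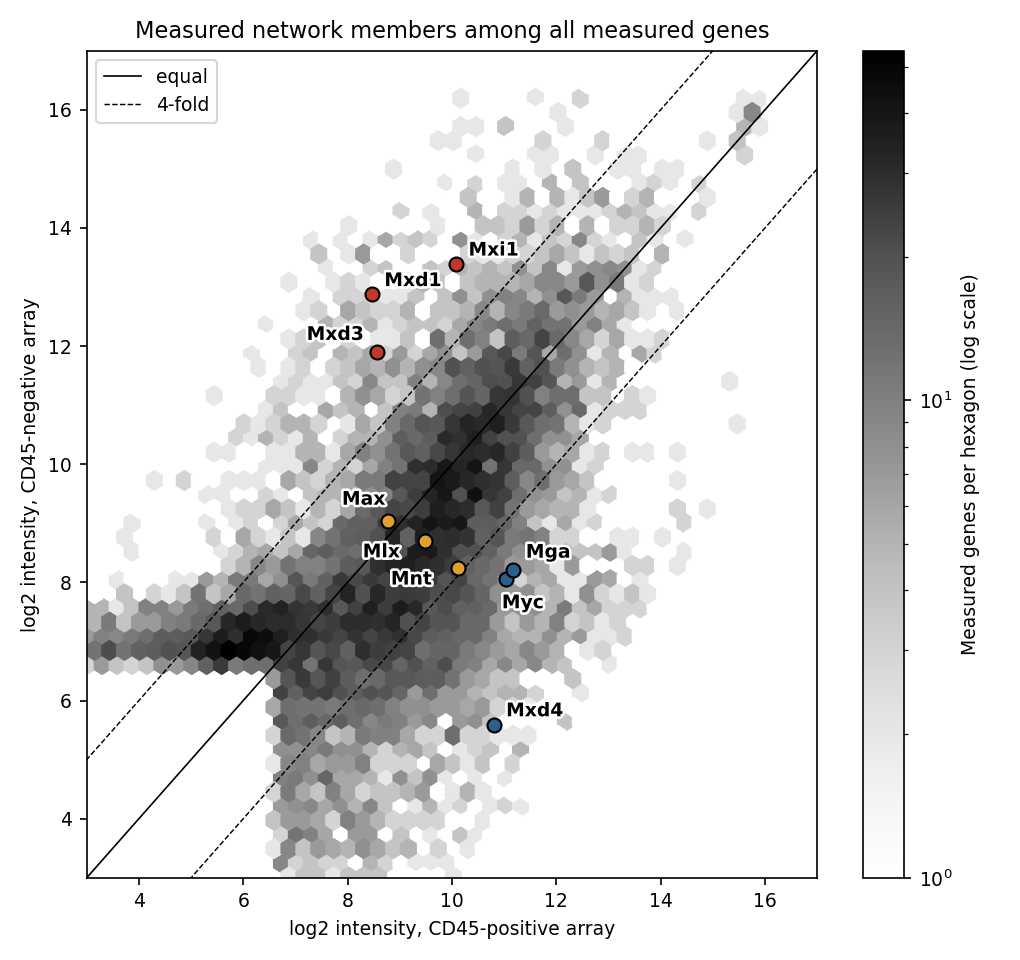
Log2 intensity in CD45-negative cells (vertical axis) against CD45-positive cells (horizontal axis) for 11793 measured genes (grey hexagons, darker where more genes lie) and the 9 measured members (red, at least 4-fold higher; blue, at least 4-fold lower; orange, neither). Mxd1, Mxd3 and Mxi1 lie above the upper 4-fold line, Myc, Mga and Mxd4 below the lower line, and Max close to the line of equal values, and genes dimmer than the axis ranges are not drawn.

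Ratios between members within an array are unaffected by a constant factor per array, though not by quantile normalization. The ratio of Mxd1 to Myc intensity was 168-fold higher in CD45-negative cells than in CD45-positive cells, a difference of 7.39 on the log2 scale (7.15 after quantile normalization). For Mxd3 and Mxi1 the same ratio was 78.8-fold and 78.5-fold higher, or 71.9-fold and 56.7-fold after quantile normalization. Relative to Max, the difference was 4.15 for Mxd1, 3.06 for Mxd3 and 3.05 for Mxi1, but -3.24 for Myc and -3.23 for Mga. After quantile normalization these values were 3.64, 2.66 and 2.32, and -3.51 and -3.54. Myc and Mga therefore had nearly the same difference by the probe sets that stand for them. These ratios show unequal differences of RNA, since intensities of different probe sets do not give relative amounts of the proteins or of the dimers.

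**Figure D3:**
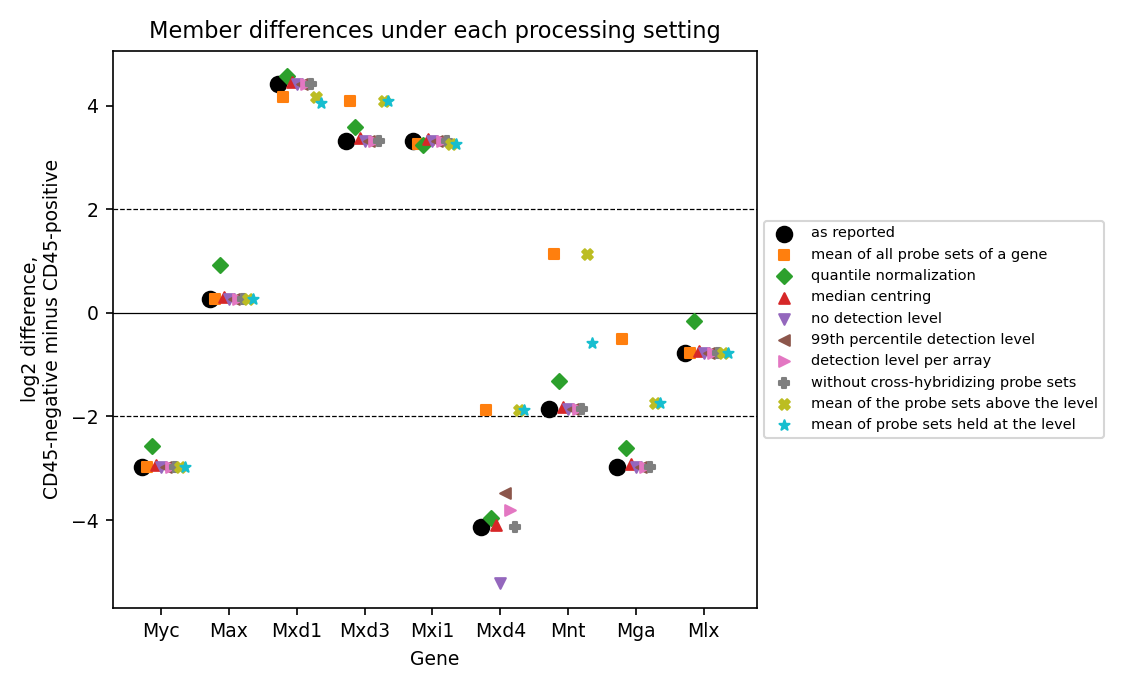
Log2 difference (CD45-negative minus CD45-positive) of the 9 measured members as reported (black) and under 9 processing alternatives (colours), with dashed lines at 4-fold. Mxd1, Mxd3 and Mxi1 stay between 3.25 and 4.57 under the alternatives and Myc between -2.98 and -2.58. Myc has only 1 probe set, while Mxd4, Mnt and Mga move with the choice of probe sets.

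The genes nearest to Myc in both log2 intensities were Ktn1, Arrb2 and Ppt1, and those nearest to Mxi1 were Fig4, Psmf1 and Ddit3. With only 2 arrays this likeness is loose, as 104 measured genes lay within 0.5 of Myc and 37 within 0.5 of Mxi1.

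The corepressors and partners that the network needs mostly differed by less than 4-fold. Of 8 measured genes, 1 was lower by 4-fold or more and 0 were higher. Their median difference was -0.25, near the -0.26 of all measured genes. The scaffold Sin3a had 2205 in CD45-negative cells against 1585 in CD45-positive cells, Sin3b had 2026 against 3176, and the deacetylase Hdac1 had 5548 against 5352. The gene past 4-fold was Mlxip, the Mlx partner also called MondoA, with 139.5 against 1924 (-3.79, 13.8-fold lower). The other Mlx partner Mlxipl (ChREBP) read 173.3 against 18.1, the latter under the level, hence at least 1.71-fold higher. Zbtb17 (Miz1), through which Myc represses genes, had 162.2 against 592.3 (-1.87). Sin3a and Hdac1 were named after their values were seen.

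Coactivators of Myc had a median difference of -0.26. Of 13 measured, 12 were in neither class and the acetyltransferase Kat2a was lower (159.9 in CD45-negative cells against 1145 in CD45-positive cells, -2.84). The scaffold Trrap had 403.3 against 1199 (-1.57), the elongation kinase Cdk9 3146 against 6472 (-1.04) and the acetyltransferase Ep300 3272 against 1356 (1.27). In the Mga complex, 1 of 11 measured genes was higher and 2 were lower, near the 8.31% and 16.8% of all measured genes. Tfdp1, a dimer partner of E2F proteins, had 6785 against 1623 (2.06), and E2f6, its repressive partner there, 2005 against 534.1 (1.91, just short of 4-fold, with a second probe set at 3.81). The histone methyltransferase Ehmt2 had 246.3 against 2994 (12.2-fold lower), and the ubiquitin ligase Ring1 was at least 4.12-fold lower (25.1, under the level, against 524.4).

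Factors that set the life of Myc protein and RNA held members past 4-fold in both directions. Of 18 turnover genes, 4 were higher and 2 lower, with a median of -0.06, where 8.31% and 16.8% of all measured genes were. The mitotic kinases Aurka, which shields Mycn protein from destruction, and Plk1 were 25.02-fold and 21.7-fold higher, with 7790 against 311.4 and 5385 against 248.1. The second probe set of Aurka gave a difference of only 0.56. Btrc, a ubiquitin ligase subunit, was 6.50-fold higher, with probe sets from 0.95 to 4.72. Pim3, a kinase, had 175.7 against 891.8 (-2.34), with another probe set at 0.34. Usp28, a deubiquitinase, had 101.1 against 412.9, which falls short of 4-fold against 127.3. Fbxw7, the ligase subunit best known for marking Myc, was named after its values were seen and had 550.6 against 919.9 (-0.74). Among 12 genes of Myc RNA control, 0 were higher and 4 lower, beside the same 8.31% and 16.8%. The AU-rich element binders Zfp36, Zfp36l1 and Zfp36l2, which speed RNA decay, were 33.3-fold, 8.36-fold and 11.8-fold lower. Zfp36 had 262.4 in CD45-negative cells against 8734 in CD45-positive cells. Fubp3 was at least 4.33-fold lower.

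Genes of ribosome assembly, a class that Myc is known to drive, were mostly lower in CD45-negative cells. Of 29 measured, 26 had a lower and 3 a higher intensity. Past 4-fold, 5 were lower and 0 higher, and 5 is about the share found among all measured genes (16.8%). The median difference was -1.43, against -0.26 for all measured genes, of which 56.7% had a lower intensity. After quantile normalization, which moved the median of all measured genes to 0.01, the list's median was -1.01 and 26 genes were still dimmer. Npm1, a nucleolar chaperone, had 4536 in CD45-negative cells against 22720 in CD45-positive cells (5.01-fold lower). Pes1 (6.15-fold, with another probe set at -0.87), Tcof1 (6.00-fold) and Wdr43 (5.98-fold) were the other large differences. Nucleolin (Ncl, named after its values were seen) was equal by the probe set that stands for it, at 11320 against 11340. The E-box was present in the windows of 8 of the 24 genes of this list that had one, against 11.6% of measured genes. Among them were Pes1 and Wdr43, but also Nop2 (-0.755) and Imp4 (-0.71). The same share, 33.3%, was found in the cell cycle list (4 of 12) and the genes held down by Myc (2 of 6), both described below.

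Genes of growth metabolism split in both directions. Of 22 measured, 5 were higher and 6 lower, where 8.31% and 16.8% of all measured genes were, with a median of 0.25 (-0.03 with the mean over probe sets), and 3 were lower after quantile normalization. Slc7a5 and Slc3a2, which together form an amino acid transporter, had 11790 against 325.1 (36.3-fold higher) and 17040 against 2989 (5.70-fold higher). Odc1, the first enzyme of polyamine synthesis, was 11.2-fold higher (38790 against 3453) and the mitochondrial folate enzyme Mthfd2 10.7-fold higher. The fifth, Shmt1, has no settled direction, as its probe sets ran from -4.94 to 2.99. The glucose transporter Slc2a1 was lower, at 114.3 against 2314, hence at least 18.2-fold. Lactate dehydrogenase A (Ldha, named after its values were seen) was 6.49-fold lower.

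Cell cycle targets of Myc had higher intensity in CD45-negative cells for 11 of 16 measured genes, but for 8 of 16 with the mean over each gene's probe sets. Of these 16, 8 passed 4-fold in the higher direction and 1 in the lower, beside 8.31% and 16.8% of all measured genes, and the median was 1.96, or 0.88 with that mean. The cyclins Ccne2 and Ccne1 were 20.1-fold and 11.2-fold higher, and E2f2, a factor of S phase entry, had 31320 in CD45-negative cells against 2430 in CD45-positive cells (12.9-fold higher). Ccnd2, a D-type cyclin, was 10.8-fold lower, at 481.1 against 5198. Of 7 measured genes that Myc is known to hold down, 2 were higher and 1 lower, with a median of 1.52, numbers too small to set against those shares. Gadd45a, a growth arrest gene, had 18480 against 536.5 (34.4-fold higher) and Cdkn2c, an inhibitor of cyclin D kinases, 10450 against 837.5 (12.5-fold higher). Cdkn1a, which encodes p21, reached 1198 against 301.9 (1.99, just short of 4-fold, with a second probe set at 2.27). Gadd45b had 173.4 against 918.0 (-2.40), but its probe sets ran up to 0.06. Other factors also control the genes of these lists, so their levels do not measure Myc activity.

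Of 5 genes listed for the Mlx branch, 1 was higher and 0 lower, again too few to set against the shares of all measured genes. Whether Mlx controls each of them in these cells was not tested. Txnip, an inhibitor of glucose uptake and the best known of them, had 4633 in CD45-negative cells against 17510 in CD45-positive cells (-1.92). Its relatives Arrdc3 and Arrdc2 had 3378 against 844.3, just past 4-fold, and 633.5 against 338.7 (0.90). Arrdc4, also on the list and named after its values were seen, had 134.9 against 148.9 (-0.14). Pklr, the red cell and liver pyruvate kinase, read 378.3 against 68.4, the latter under the level.

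**Figure D4:**
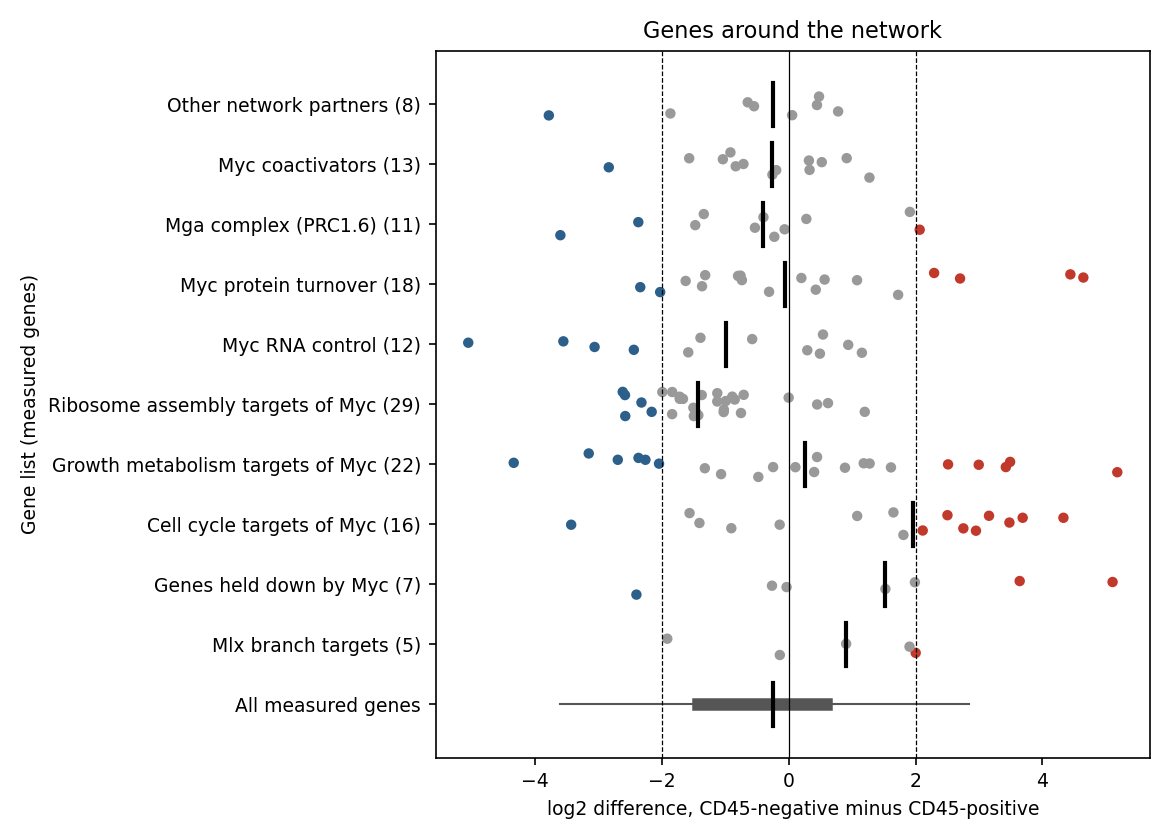
Log2 difference (CD45-negative minus CD45-positive) of each measured gene in 10 lists around the network (points; red and blue, at least 4-fold higher and lower; black bars, list medians; numbers of genes in brackets), with all measured genes below as median, middle 50% (thick line) and middle 90% (thin line). The ribosome assembly list lies mostly left of 0, with a median of -1.43, and the cell cycle list has a median of 1.96, with 11 of 16 genes right of 0.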

How the data were processed

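The authors deposited linear intensity values of 2 arrays, 1 for each probe set. Per the labels' protocols, biotinylated cRNA was prepared by a 3' IVT expression kit, and the submitters' processing notes name GCRMA and Partek 6.6 without their roles. The arrays' means with 2% trimmed at each end were 494 and 497, which scaling to a common level would give, so the step behind the values is not settled, and there are no detection calls. Platform annotation named 34945 probe sets for a single gene, and the symbols of all 10 members matched RefSeq (GRCm38.p6) by Entrez identifier. Intensities were converted to log2 without further normalization. The probe set with the highest mean log2 value stood for a gene, values under the detection level were set to it, and bounds for single genes dim in CD45-negative cells were taken against 127.3. Called means 4-fold. The arrays' number limits the precision, and groups were taken from the cell type label. The members and lists were chosen with earlier results of these data known. All members are named, as are the 4 genes of each list with the largest difference and those 4-fold against their list, with exceptions stated. Alternatives covered probe sets, scaling, the detection level and the threshold. The calling of genes past 4-fold was tested on simulated data, 2 arrays with known changes and an assumed noise. As replicate error is unknown here, that gives no error rate for these data. The tools were numpy 2.4.6 and scipy 1.17.1 for statistics, pandas 2.3.3 for tables and matplotlib 3.10.9 for plots, run in Python 3.11.15.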

Additional observations from a re-analysis of the deposited data

How the results depend on the processing

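Mxd1, Mxd3 and Mxi1 were at least 4-fold higher under all 10 alternatives, and so was Myc lower. For these 3 repressors, only quantile normalization, median centring and the means over probe sets could change the difference. The other alternatives could not have undone their calls. Myc has only 1 probe set, above the level in both arrays, so most alternatives could not change its difference. Only quantile normalization (-2.58) and median centring (-2.93) could. The count of lower members was 1 with the mean of all probe sets, and also 1 with the mean of the probe sets above the level, as read or held at the level, both chosen after seeing the data. Mxd4 and Mga have probe sets near or under the level. With a 2-fold threshold, the listed genes around the network gave 36 higher and 53 lower, against 21 and 23 at 4-fold. Of 81 differences of single members under alternatives, 71 stayed within the spread between probe sets (0.83), and the 10 others concern Mxd4, Mnt and Mga. Many of the 71 could not change, so this count does not measure stability. Leaving out cross-hybridizing probe sets removed none of the members' probe sets. Another detection level could change only Mxd4, and a mean over probe sets could not change Myc or Max, with 1 probe set each. The mean of both Mnt probe sets was 1.14 with the reading of 7.6 taken as it stands and -0.58 with it held at the level, so the positive value rests on a reading under the level. No paired analysis was possible because each group has 1 array, which also leaves no replicate to omit. Signal near the detection level limits Mycn, Mxd4 and Mga.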
